A study of Mus musculus with 24 samples.

Results

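Genes that carry lipids and sterols between and within cells were followed in the cortex of amyloid-bearing mice. They were Apoe, Clu, Lpl, Abca1, Abcg1, Abca7, Soat1, Ch25h and Cyp27a1. They were taken by gene symbol from a table of read counts, 9 of its 24421 genes, and all 9 passed the filter on low counts that left 16316 genes for testing. RNA came from the cortex of 24 mice aged 7.5 months, with 1 library per mouse. Every mouse carried 5xFAD, human transgenes with familial Alzheimer mutations in the amyloid precursor protein and presenilin 1, driven by the neuronal Thy1 promoter. The labels gave 4 genotypes with 6 mice each. WT mice were unaltered at both loci, Trem2KO mice lacked Trem2, Plcg2KO mice lacked Plcg2, and Plcg2HET mice were labelled as carrying the Plcg2 knockout on one allele. There were 4 males and 2 females in Plcg2KO, and 3 of each sex in every other genotype. The labels do not say in which cells the knockouts act or which mice were littermates. The mouse numbers in the titles run in a separate range for each genotype, that of WT far from the others. What the numbers stand for is not said, so anything that went with them cannot be told apart from genotype. Mice without 5xFAD were not analysed here, so each level is one in the presence of the transgenes. The comparisons address how loss of Trem2, a lipid-sensing receptor of microglia, or of Plcg2, a phospholipase downstream of immune receptors, changes gene expression in cortex with the transgenes. An effect on the response to amyloid cannot be told apart from an effect of genotype without it.

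In the brain, cholesterol moves between cells on lipoprotein particles built around ApoE and clusterin, which astrocytes and activated microglia release. The ABC transporters ABCA1 and ABCG1 load cholesterol onto these particles, lipoprotein lipase frees fatty acids from them, and cells store surplus cholesterol as esters made by SOAT1. Hydroxylated cholesterols made by enzymes such as CH25H and CYP27A1 activate the LXR nuclear receptors, which in turn raise Apoe, Abca1 and Abcg1 transcription.

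The targeted genes matched the knockout labels. Trem2 had a mean level of 82.5 CPM (read counts scaled to library size, here by TMM) in WT and 6.01 CPM in Trem2KO, and Plcg2 fell from 11.8 CPM in WT to 0.984 CPM in Plcg2KO. Plcg2 stood at 12.0 CPM in the libraries labelled Plcg2HET, so its transcript level did not set them apart from WT. In Plcg2KO the Trem2 level was 19.1 CPM. Libraries held between 36.3 and 83.0 M counted reads. Rn45s, a ribosomal RNA precursor, took over 5% of counts in 3 libraries, up to 29.0% in Plcg2HET F3. The 12 neuronal markers summed to between 11060 and 16273 CPM in every library. They mark neurons in general, so they cannot tell cortex from another brain region.

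None of the 9 genes overlapped another gene in the deposited mm10 coordinates. On the plus strand, Clu lies on chromosome 14 at 65968483 to 65981545, Lpl on chromosome 8 at 68880555 to 68906932 and Abcg1 on chromosome 17 at 31057694 to 31117981. Abca7 lies on the plus strand of chromosome 10 at 79997615 to 80015572, and Cyp27a1 on that of chromosome 1 at 74713574 to 74737890. On the minus strand, Apoe lies on chromosome 7 at 19696244 to 19699188 and Soat1 on chromosome 1 at 156428108 to 156474328. Abca1, whose level rose in Trem2KO, lies on the minus strand of chromosome 4 at 53030789 to 53159895. Ch25h, which fell furthest, lies on the minus strand of chromosome 19 at 34473784 to 34475135. The 250 bases upstream of the annotated starts of both genes are shown because they moved in opposite directions and because LXR acts on the Abca1 promoter. RefSeq windows of GRCm38.p6, the mm10 assembly, were matched for 6 of the 9 genes. Clu, Lpl and Abcg1 had no window in the table used. Capitals mark 2 matches in Abca1, an E-box (CACGTG) and an LXR element of the DR4 type (a direct repeat with at most 3 mismatches in its fixed bases, found on the opposite strand).
Abca1 (chr4:53159896-53160145, minus strand): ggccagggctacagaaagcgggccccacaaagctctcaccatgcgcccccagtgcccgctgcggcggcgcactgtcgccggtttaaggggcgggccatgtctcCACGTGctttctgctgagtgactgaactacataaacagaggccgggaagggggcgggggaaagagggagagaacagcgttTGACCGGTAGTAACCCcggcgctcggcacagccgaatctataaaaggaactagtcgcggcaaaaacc
Ch25h (chr19:34475149-34475398, minus strand): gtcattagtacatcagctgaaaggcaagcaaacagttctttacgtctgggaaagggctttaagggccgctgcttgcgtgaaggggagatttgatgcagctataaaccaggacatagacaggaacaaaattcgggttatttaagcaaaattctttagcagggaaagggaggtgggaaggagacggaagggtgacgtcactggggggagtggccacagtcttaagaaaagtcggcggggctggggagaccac

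The DR4 match lay 67 to 52 bases before the Abca1 start and carried 3 mismatches. Such a match was held by 21.9% of all 32851 promoter windows, and the E-box by 7.15%. Neither motif was found on either strand of the windows of Apoe, Abca7, Soat1, Ch25h and Cyp27a1. A sterol element (at most 1 mismatch, 1.95% of windows) and a PU.1 motif (GAGGAAGT, 3.2% of windows) were found in none of the 6 windows, Abca1 included. The windows of Ch25h, Cyp27a1 and Abca7 start 13, 39 and 1121 bases from the 5′ end in the deposited table, so these windows need not be the promoters of the counted transcripts.

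Per kilobase of summed exon, the 9 genes spanned a wide range of WT levels. Apoe came first at 1699 CPM per kilobase and Clu followed at 598. Lpl at 16.4 and Abcg1 at 13.0 formed the next step, then Soat1 at 5.57. Abca1 at 3.27, Cyp27a1 at 3.23 and Abca7 at 3.15 lay side by side, and Ch25h was lowest at 1.56 CPM per kilobase. The remaining levels are CPM per gene and are compared between genotypes only. Whether ranges overlap is given as a description, and how many of all tested genes have ranges apart was not counted.

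**Figure D1:**
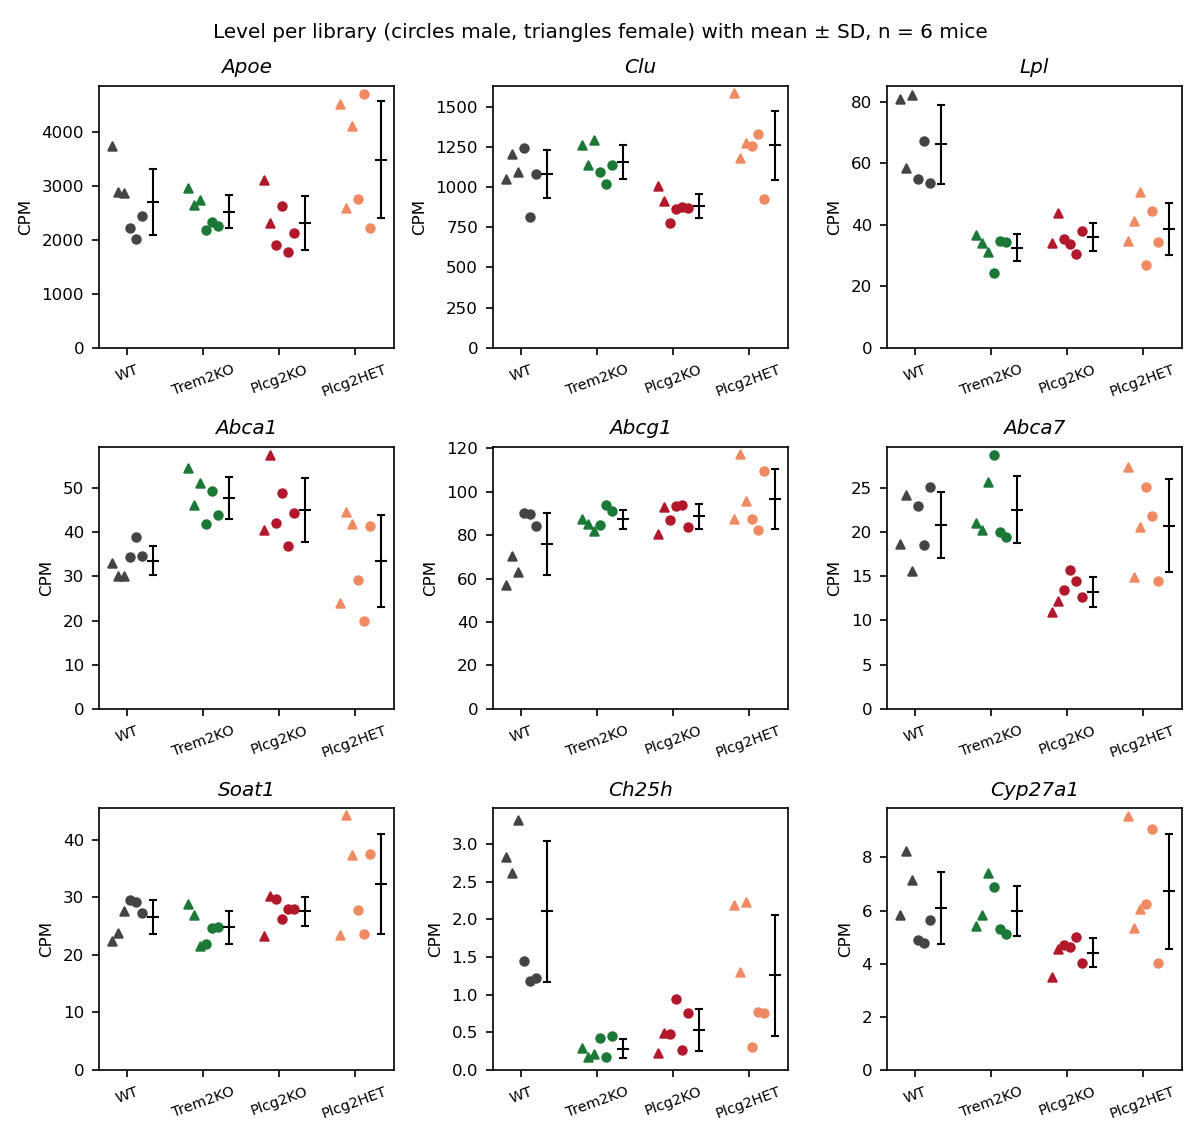
TMM-scaled CPM of the 9 genes in each of the 24 libraries (vertical axes from 0), by genotype, with the mean and SD of 6 mice beside the points. Every WT library lay above every other library for Lpl, and the Ch25h levels of Trem2KO and Plcg2KO lay below those of WT.

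Apoe, which encodes the main apolipoprotein of the brain, was abundant in all genotypes and its ranges overlapped throughout. Its lowest, median and highest levels were 2017, 2654 and 3729 CPM in WT. They were 2176, 2490 and 2951 CPM in Trem2KO and 1773, 2215 and 3114 CPM in Plcg2KO. Those labelled Plcg2HET ran from 2210 through 3427 to 4697 CPM. Neither knockout differed from WT by the edgeR test. The log2 difference was -0.09 in Trem2KO (95% interval -0.39 to 0.22) and -0.16 in Plcg2KO (95% interval -0.46 to 0.15). Apoe was lower in Plcg2KO than in the libraries labelled Plcg2HET, with a log2 difference of -0.54 ± 0.15 (SE, adjusted p = 0.00677). That difference became -0.22 (adjusted p = 0.0987) with offsets for each library's trend with gene GC content and length, and -0.44 (adjusted p = 0.0563) without the 3 libraries rich in Rn45s. With only those groups in the fit its adjusted p was 0.0510, in males alone 0.0582 and in females alone 0.176. Against WT, the libraries labelled Plcg2HET stood 0.38 log2 units higher without passing the test (adjusted p = 0.0712).

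Clu, which encodes clusterin (apolipoprotein J), was lowest in Plcg2KO. Its lowest, median and highest levels were 776, 873 and 1005 CPM in Plcg2KO against 1017, 1135 and 1292 CPM in Trem2KO, so that these ranges did not overlap. WT ran from 816 through 1086 to 1244 CPM and overlapped both. Clu fell in Plcg2KO against Trem2KO with a log2 difference of -0.36 ± 0.10 (SE, adjusted p = 0.0207). The adjusted p rose to 0.0520, 0.0507 and 0.0528 when Plcg2KO F2, Trem2KO F3 or Trem2KO M1 was left out. It was 0.336 in males alone and 0.206 in females alone. Against the libraries labelled Plcg2HET, which ran from 925 to 1587 CPM, Clu was lower by -0.48 ± 0.10 (SE, adjusted p = 0.000835). That call was lost in males alone (adjusted p = 0.0508) and in females alone (0.0691). Against WT the log2 difference was -0.27 (adjusted p = 0.0799) in Plcg2KO and 0.09 (95% interval -0.11 to 0.30) in Trem2KO.

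Lpl, the lipase that releases fatty acids from triglyceride-rich particles and a marker of plaque-associated microglia, was lower than WT in all 3 other genotypes. WT libraries held 53.5, 62.8 and 82.2 CPM as the lowest, median and highest level. Trem2KO held 24.4, 34.3 and 36.8 CPM and Plcg2KO 30.5, 34.8 and 43.7 CPM. In the libraries labelled Plcg2HET it stood at 26.9, 38.0 and 50.6 CPM. No library of another genotype reached the lowest WT library. The log2 fold change against WT was -1.02 ± 0.12 (SE, adjusted p = 4.12e-06) in Trem2KO. It was -0.84 ± 0.13 (adjusted p = 3.62e-05) in Plcg2KO and -0.77 ± 0.12 (adjusted p = 0.000309) in the libraries labelled Plcg2HET. These comparisons share the 6 WT mice, so a shift in WT alone would enter all 3 of them. Such a shift cannot be told apart from an effect of genotype here. Plcg2KO and the libraries labelled Plcg2HET differed by -0.07 on the log2 scale (95% interval -0.32 to 0.19), and Plcg2KO and Trem2KO by 0.18 (95% interval -0.08 to 0.43).

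In cortex RNA, fewer cells of a type and less RNA per cell cannot be told apart. The 15 pan-microglial markers, among them Csf1r and Aif1, moved beside Lpl in the knockouts. All 15 were lower in Plcg2KO than in WT, with a median log2 fold change of -1.11, and 14 of 15 were lower in Trem2KO, with a median of -0.83. In the libraries labelled Plcg2HET none was lower, 2 were higher and the median was 0.07. Their summed level ran from 1141 to 2001 CPM in WT, 760 to 1111 CPM in Trem2KO, 592 to 1023 CPM in Plcg2KO and 1274 to 2281 CPM in the libraries labelled Plcg2HET. The lower Lpl of the libraries labelled Plcg2HET stood beside microglial marker sums that overlapped those of WT and reached above them. The part of the markers in the Lpl differences was not tested in any comparison.

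Of the efflux transporters, Abca1 rose in Trem2KO. ABCA1 passes cholesterol and phospholipid to lipid-poor ApoE. Its lowest, median and highest levels were 30.1, 33.7 and 38.9 CPM in WT and 41.8, 47.8 and 54.5 CPM in Trem2KO. Every Trem2KO library therefore lay above every WT library. The log2 fold change was 0.51 ± 0.15 (SE, adjusted p = 0.0210), and the adjusted p was 0.0589 without WT F3 and 0.05004 without Trem2KO F1. Plcg2KO ran from 36.8 through 43.2 to 57.5 CPM, a log2 difference from WT of 0.44 ± 0.15 (SE) that missed the threshold (adjusted p = 0.0520). It passed with RLE scaling (adjusted p = 0.0488), DESeq2 (0.0310), a filter on mean CPM (0.0481) and only those 2 groups (0.0052). With GC and length offsets the difference shrank to 0.27 and did not pass (0.0644). Nor did it pass with a replicate block (0.106), expected counts (0.0807) or no count filter (0.0560). Removing the Rn45s-rich libraries gave an adjusted p of 0.0627, females alone 0.0800 and males alone 0.688. Among the libraries labelled Plcg2HET the Abca1 level spread from 19.99 to 44.5 CPM around a median of 35.4 CPM. Plcg2KO stood above them by 0.44 ± 0.15 (SE, adjusted p = 0.0232), a call that was lost when Plcg2KO F2 or Plcg2HET M1, M2 or F1 was left out (adjusted p from 0.0537 to 0.0741) and without the libraries rich in Rn45s (adjusted p = 0.0721). The call was also lost with only those groups in the fit (adjusted p = 0.0746), in males alone (0.0881) and in females alone (0.223). Plcg2KO and Trem2KO differed in Abca1 by -0.07 (95% interval -0.38 to 0.24).

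Abcg1, which moves cholesterol to lipidated particles, had its lowest mean in WT. Its lowest, median and highest levels were 57.2, 77.2 and 90.4 CPM in WT. They were 81.8, 86.3 and 93.9 CPM in Trem2KO and 80.7, 90.1 and 94.1 CPM in Plcg2KO. All 3 ranges overlapped, and the log2 difference from WT was 0.21 in both knockouts (adjusted p = 0.167 and 0.171). The libraries labelled Plcg2HET ran from 82.4 through 91.5 to 118 CPM and were higher than WT by 0.36 ± 0.10 (SE, adjusted p = 0.0150). The adjusted p of that call was 0.0840 with GC and length offsets, 0.101 with only those 2 groups in the fit and 0.09996 without the libraries rich in Rn45s.

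Abca7, a transporter of phospholipids whose human gene is an Alzheimer risk locus, was lower in Plcg2KO than in each other genotype. Plcg2KO held 11.0, 13.0 and 15.7 CPM as the lowest, median and highest level. WT held 15.6, 20.7 and 25.0 CPM, Trem2KO 19.4, 20.6 and 28.7 CPM, and the libraries labelled Plcg2HET 14.5, 21.2 and 27.3 CPM. Plcg2KO lay below all Trem2KO libraries, and its highest library lay just above the lowest of WT. The log2 fold change of Plcg2KO was -0.67 ± 0.15 (SE, adjusted p = 0.00300) against WT. It was -0.78 ± 0.15 (adjusted p = 0.00386) against Trem2KO and -0.66 ± 0.15 (adjusted p = 0.00157) against the libraries labelled Plcg2HET. Trem2KO differed from WT by 0.12 (95% interval -0.19 to 0.42).

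A trend of the libraries with base composition ran beside these levels, and in this design it cannot be told apart from genotype. The rank correlation, across genes, between a library's deviation from the mean of all libraries and gene GC content was negative in all 6 Plcg2KO libraries (-0.549 to -0.272). It ran from -0.0836 to 0.497 in Trem2KO (median 0.326) and from -0.486 in WT M2 to 0.256 in WT (median -0.06). In the libraries labelled Plcg2HET it was -0.432 in M3 and -0.368 in F2, against 0.272 to 0.535 in the other 4. Levels of some members split the same way there. Abcg1 stood at 109 CPM in M3 and 118 CPM in F2, against 82.4 to 95.6 CPM in the other 4. Abca7 stood at 14.5 and 14.9 CPM, against 20.5 to 27.3 CPM. Lpl, at 34.4 and 41.1 CPM, lay within the 26.9 to 50.6 CPM of the other 4. Apoe, at the 94.3 percentile of GC content among tested genes, and Abca7, at the 92.3 percentile, were among the GC-rich genes, while Lpl, at 30.3, Soat1, at 30.4, and Abca1, at 38.5, were GC-poor. With genotype and sex means removed, the level followed this library trend with a Pearson r of 0.86 for Abca7, 0.78 for Clu, 0.74 for Cyp27a1 and 0.68 for Apoe over 24 libraries. The r was -0.72 for Soat1, -0.68 for Abca1, -0.34 for Lpl and 0.09 for Ch25h. For Abcg1, at the 72.4 percentile of GC content, it was -0.58, a sign opposite to that of Apoe and Abca7. The points share libraries and scaling. With the GC and length offsets, the log2 fold change of Abca7 in Plcg2KO was -0.65 against WT, -0.54 against Trem2KO and -0.43 against the libraries labelled Plcg2HET, and each passed the test. Clu was then lower in Plcg2KO than in Trem2KO by -0.24 (adjusted p = 0.0477). The log2 difference of Abca1 from WT was then 0.27 in Plcg2KO (adjusted p = 0.0644) and 0.46 in Trem2KO (adjusted p = 0.00219).

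Soat1, the enzyme that esterifies cholesterol for storage, was called in none of the 5 comparisons. Its lowest, median and highest levels were 22.4, 27.5 and 29.5 CPM in WT, 21.6, 24.8 and 28.9 CPM in Trem2KO and 23.3, 28.0 and 30.2 CPM in Plcg2KO. The libraries labelled Plcg2HET reached from 23.4 to 44.4 CPM. The log2 difference from WT was -0.10 in Trem2KO (95% interval -0.37 to 0.17), 0.05 in Plcg2KO (95% interval -0.22 to 0.32) and 0.28 in the libraries labelled Plcg2HET (95% interval 0.01 to 0.55, adjusted p = 0.144). With GC and length offsets the last difference was 0.30 and passed (adjusted p = 0.0173), and Soat1 was then also lower in Plcg2KO than in the libraries labelled Plcg2HET (-0.37, adjusted p = 0.00321).

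Ch25h, which makes 25-hydroxycholesterol and is expressed by activated microglia and macrophages, fell the most of the 9 genes. It was also the least abundant, with 55 to 186 reads per library in WT and 10 to 37 in Trem2KO. WT held 1.18, 2.03 and 3.32 CPM as the lowest, median and highest level. Trem2KO held 0.167, 0.247 and 0.446 CPM and Plcg2KO 0.224, 0.483 and 0.939 CPM, so neither knockout overlapped WT. The log2 fold change against WT was -2.73 ± 0.41 (SE, adjusted p = 5.60e-05) in Trem2KO and -1.78 ± 0.40 (SE, adjusted p = 0.00293) in Plcg2KO. The libraries labelled Plcg2HET ran from 0.304 through 1.04 to 2.23 CPM, a difference from WT of -0.78 that did not pass the test (adjusted p = 0.141). Plcg2KO stood 0.95 log2 units above Trem2KO, also without passing (95% interval 0.08 to 1.82, adjusted p = 0.112). Plcg2KO differed from the libraries labelled Plcg2HET by -1.002 on the log2 scale without passing (adjusted p = 0.0566). That difference passed with DESeq2 (adjusted p = 0.0223), expected counts (0.0302), GC and length offsets (0.0315), no sex term (0.0199) and females alone (0.00207). It did not pass with a replicate block (0.0679), with only those groups (0.166) or with RLE scaling (0.0543). Nor did it pass with the count filter dropped (0.0629) or set by mean CPM (0.0502). In males alone it was -0.02 (adjusted p = 0.978). Once the Rn45s-rich libraries were removed it shrank to -0.55 (adjusted p = 0.366).

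Cyp27a1, the mitochondrial sterol 27-hydroxylase, was lowest in Plcg2KO. It ran from 3.50 through 4.60 to 5.00 CPM there and from 5.12 through 5.62 to 7.40 CPM in Trem2KO, without overlap. WT ran from 4.79 through 5.75 to 8.24 CPM and the libraries labelled Plcg2HET from 4.04 through 6.16 to 9.56 CPM. Cyp27a1 was lower in Plcg2KO than in the libraries labelled Plcg2HET by -0.57 ± 0.17 (SE, adjusted p = 0.0121), and the adjusted p became 0.0621 without Plcg2HET M2 and 0.0721 without the libraries rich in Rn45s. It was 0.127 in males alone and 0.0639 in females alone. The differences of Plcg2KO from WT (-0.43, adjusted p = 0.104) and from Trem2KO (-0.41, adjusted p = 0.0917) did not pass.

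Counted over the 9 genes, Plcg2KO against WT gave 3 called lower (Lpl, Abca7 and Ch25h) and none higher. Of all tested genes 13.1% were called there, 7.63% lower and 5.44% higher. Trem2KO against WT gave 2 lower (Lpl and Ch25h) and 1 higher (Abca1), where 15.7% of all genes were called, 8.16% lower and 7.56% higher. In the libraries labelled Plcg2HET 1 gene was lower than in WT (Lpl) and 1 higher (Abcg1), where 18.0% of all genes were called, 7.13% lower and 10.9% higher. Plcg2KO against Trem2KO gave 2 lower (Clu and Abca7), where 16.5% of all genes were called, 8.82% lower and 7.63% higher. Plcg2KO against the libraries labelled Plcg2HET gave 4 lower (Apoe, Clu, Abca7 and Cyp27a1) and 1 higher (Abca1), where 35.2% of all genes were called, 20.2% lower and 15.0% higher. The median log2 fold change of the 9 genes was -0.27 in Plcg2KO and -0.02 in Trem2KO against WT, and that of all tested genes was -0.00 and -0.02.

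**Figure D2:**
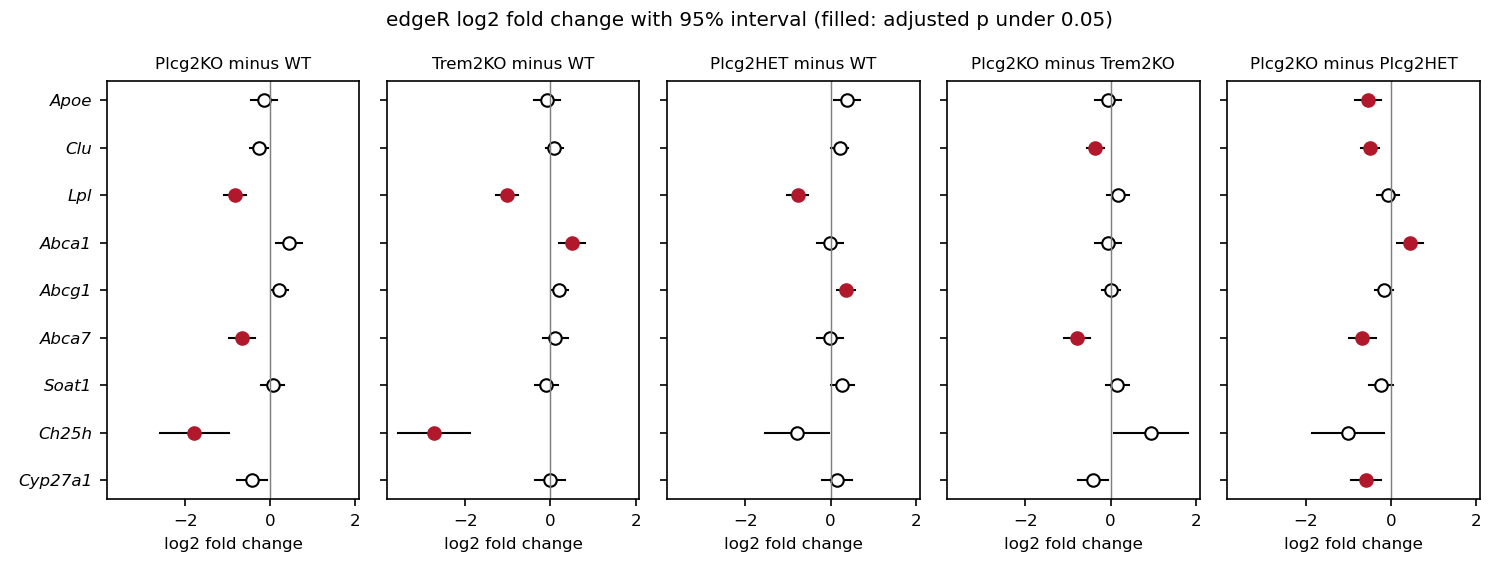
Log2 fold change (horizontal axis) of each gene (vertical axis) in the 5 comparisons, with the 95% interval from the edgeR fit as a line and filled points for an adjusted p under 0.05. Lpl is filled on the lower side in each comparison with WT, and Abca7 in each comparison of Plcg2KO.

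Set against the pan-microglial markers, 7 of the 9 genes stood above WT in both knockouts, Lpl and Ch25h being the others. The markers themselves had a lower mean log2 CPM, 5.82 in WT, 4.97 in Trem2KO and 4.65 in Plcg2KO, so a gene with a constant level stands above WT on this scale. For each library, the log2 CPM of a gene was taken relative to the mean log2 CPM of the 15 markers, as a description without a test. Relative Abca1 stood 1.37 log2 units above WT in Trem2KO and 1.59 in Plcg2KO, and relative Abcg1 1.08 and 1.42. Relative Apoe stood 0.78 and 0.95 above WT, and relative Clu 0.96 and 0.89. Relative Lpl was -0.16 in Trem2KO and 0.31 in Plcg2KO, so its fall was close in size to that of the markers there. In the libraries labelled Plcg2HET relative Lpl was -0.87. Relative Ch25h was below WT in all 3 genotypes, at -1.86 in Trem2KO, -0.80 in Plcg2KO and -0.97 in the libraries labelled Plcg2HET. Several of these genes are also expressed outside microglia, so the ratio is not a level per microglial cell.

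**Figure D3:**
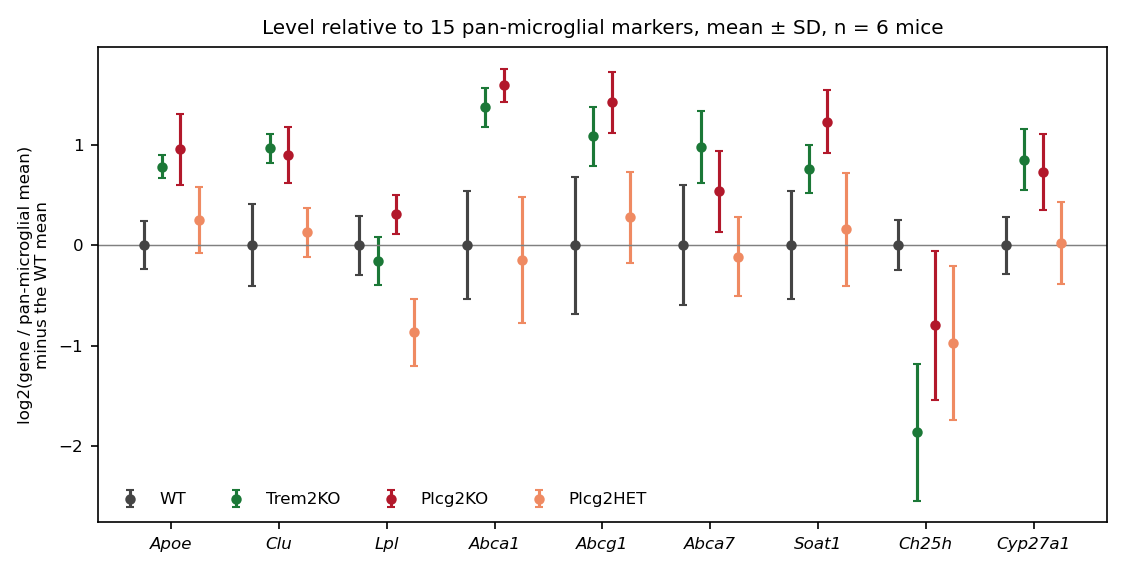
Log2 ratio of each gene to the mean of 15 pan-microglial markers, minus the WT mean (vertical axis), as mean and SD of 6 mice per genotype. Ch25h lies below WT in Trem2KO, Plcg2KO and Plcg2HET, while Abca1 lies above it in Trem2KO and Plcg2KO.

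Markers of other cells moved less than those of microglia, with exceptions. Against WT, 13.1% of all tested genes were called in Plcg2KO, 15.7% in Trem2KO and 18.0% in the libraries labelled Plcg2HET. None of 14 astrocyte markers was called by edgeR in Trem2KO against WT (5 with an unadjusted p under 0.05 and 0 called by DESeq2), and 2 were higher and 1 lower in Plcg2KO. Astrocyte markers summed to 6243 to 7265 CPM in WT, 6042 to 7280 CPM in Trem2KO and 6617 to 7649 CPM in Plcg2KO. In Plcg2KO against the libraries labelled Plcg2HET, 3 astrocyte markers were higher and 4 lower, where 35.2% of all genes were called. Of 12 endothelial and mural markers 6 were lower in Plcg2KO than in WT and 7 were lower than in Trem2KO. In the latter comparison 8.82% of all genes were called lower. The sum of these 12 markers was 120 to 160 CPM in Plcg2KO, 180 to 235 CPM in Trem2KO and 161 to 268 CPM in WT. Of 12 fibroblast and border-macrophage markers 9 were higher than WT in each knockout and 8 in the libraries labelled Plcg2HET, with sums of 74.5 to 102 CPM in WT and 127 to 159 CPM in Trem2KO. Of 15 other markers of disease-associated microglia, all were lower in Plcg2KO and 12 in Trem2KO. The part of these cells in the levels of the 9 genes was not tested.

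Sex entered the fit as a term, and no gene of the 9 was called between males and females. Apoe was closest, at 2425 CPM in males and 3131 CPM in females (log2 difference male minus female -0.35, adjusted p = 0.1001). Whether the genotype effect differed by sex was tested in 4 comparisons. None of the 36 tests passed after adjustment over all genes by edgeR, and 5 had an unadjusted p under 0.05, in Ch25h and Abcg1. Ch25h averaged 2.92 CPM in the 3 WT females (2.62 to 3.32) and 1.28 CPM in the 3 WT males (1.18 to 1.45). In Trem2KO it was 0.220 CPM in females and 0.348 CPM in males. The pan-microglial markers also differed by sex. Their mean log2 CPM was 6.11 to 6.27 in WT females and 5.34 to 5.58 in WT males. In Trem2KO it was 5.12 to 5.22 in females and 4.68 to 4.89 in males. The part of the markers in the sex difference of Ch25h was not tested. The effect of Trem2KO on Ch25h in males minus that in females was 1.87 ± 0.61 log2 units (SE, unadjusted p = 0.00537, adjusted p = 0.9999). The corresponding difference for Plcg2KO was 1.92 ± 0.61 (unadjusted p = 0.00461, adjusted p = 0.636). Abcg1 averaged 63.5 CPM in the 3 WT females (57.2 to 70.4) and 88.1 CPM in the 3 WT males (84.1 to 90.4). In Trem2KO it was 84.8 and 89.8 CPM. Ch25h and Abcg1 are described here for their low unadjusted p. How many of all genes separate the WT mice by sex in this way was not counted. Fitted in each sex alone, the fall of Ch25h in Trem2KO was -3.70 in females (adjusted p = 2.20e-05) and -1.85 in males (adjusted p = 0.114). In Plcg2KO it was -2.98 in females (adjusted p = 0.000386) and -1.09 in males (adjusted p = 0.253). Abca1 in Trem2KO was 0.73 in females (adjusted p = 0.0455) and 0.33 in males (adjusted p = 0.527), and Abca7 in Plcg2KO against WT was -0.73 in females (adjusted p = 0.0840) and -0.66 in males (adjusted p = 0.0887). Abcg1 in the libraries labelled Plcg2HET was 0.68 in females (adjusted p = 0.0385) and 0.09 in males (adjusted p = 0.720).

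**Figure D4:**
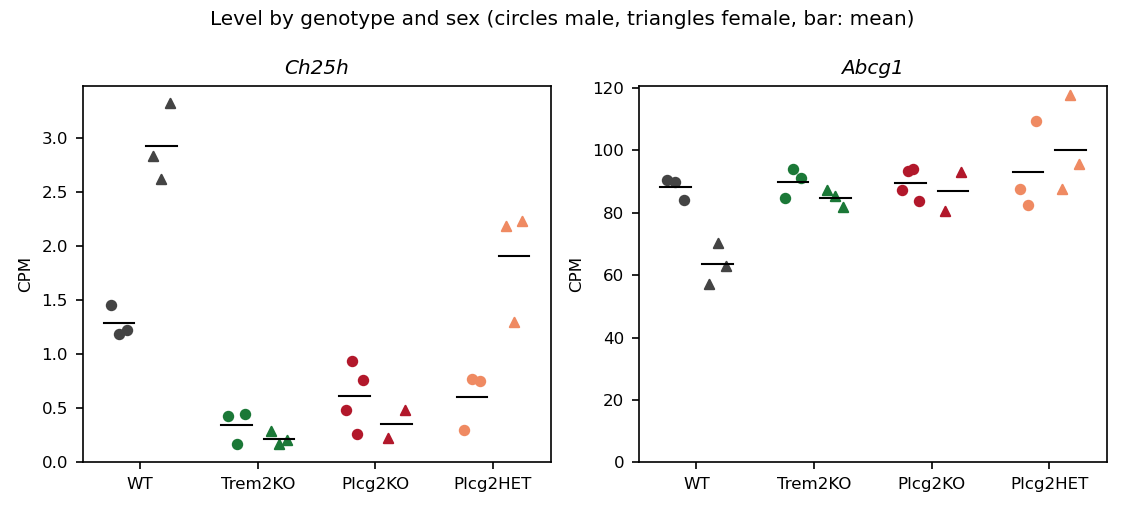
TMM-scaled CPM of Ch25h and Abcg1 (vertical axes from 0) per mouse, by genotype and sex, with a bar at each mean. The 3 WT females lie above the 3 WT males for Ch25h and below them for Abcg1.

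Among themselves the 9 genes varied in opposed sets. With genotype and sex means removed, Abca1, Abcg1 and Soat1 varied together over the 24 libraries, with a Pearson r of 0.81 between Abca1 and Soat1, 0.75 between Abcg1 and Soat1 and 0.71 between Abca1 and Abcg1. Abca7 followed Cyp27a1 (r = 0.71) and Clu (r = 0.69). The sets opposed each other, with an r of -0.74 between Abca1 and Cyp27a1 and -0.73 between Apoe and Soat1. Lpl and Ch25h followed each other over all 24 libraries (r = 0.76) and less within genotypes (r = 0.36). All points come from the same libraries, and the opposed sets are also those that followed the GC trend in opposite directions.

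**Figure D5:**
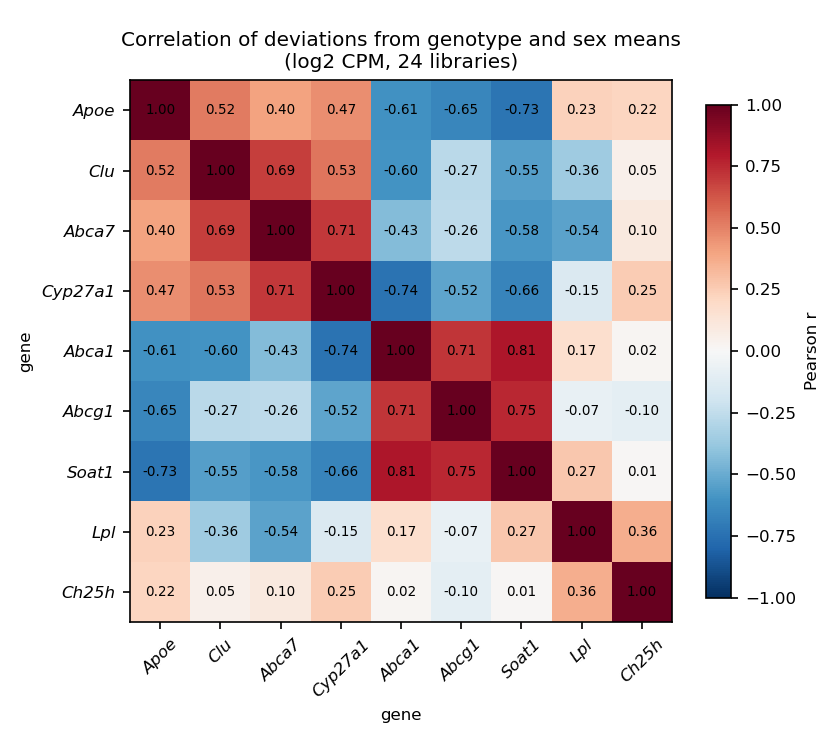
Pearson r (colour and number) between the 9 genes, on both axes, for log2 CPM over 24 libraries after removal of genotype and sex means. Abca1, Abcg1 and Soat1 form a block with r from 0.71 to 0.81 and are negative against Apoe, Clu, Abca7 and Cyp27a1.

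Lipoprotein receptors take up the particles. Of 13 tested receptors 4 were higher and none lower in Trem2KO than in WT, and 1 was higher and 1 lower in Plcg2KO. Libraries labelled Plcg2HET had 3 higher than in WT and none lower. The shares of all tested genes called in these comparisons were 15.7%, 13.1% and 18.0%. Sorl1, the sorting receptor that also handles the amyloid precursor protein, rose in both, by 0.73 ± 0.13 (SE, adjusted p = 0.000366) in Trem2KO and 0.61 ± 0.13 (SE, adjusted p = 0.00184) in Plcg2KO. Stab1, a scavenger receptor of macrophages, rose by 0.81 ± 0.16 (SE, adjusted p = 0.00102) in Trem2KO. Median log2 fold changes of the list were 0.27 in Trem2KO and 0.13 in Plcg2KO, against -0.02 and -0.00 over all genes.

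Genes of LXR signalling and of sterol synthesis had calls in both directions over the comparisons with WT. Of 15 tested LXR genes and targets, 1 was lower in Plcg2KO, Myo1e (-0.55, adjusted p = 0.00104), and 3 were higher and 2 lower in Trem2KO. Libraries labelled Plcg2HET had 5 of the 15 higher and 1 lower than in WT, and 1 of the 26 tested sterol synthesis genes higher. Over all tested genes, the shares called were the 13.1%, 15.7% and 18.0% given above for the 3 comparisons, and the lists were not tested as sets. Fasn, fatty acid synthase, rose by 0.80 ± 0.15 (SE, adjusted p = 0.000664) in Trem2KO and by 0.72 ± 0.15 (SE, adjusted p = 0.00192) in the libraries labelled Plcg2HET. Of 26 sterol synthesis genes 2 were lower in Plcg2KO, Mvd (-0.38, adjusted p = 0.0354) among them, while 3 were higher and 1 lower in Trem2KO. Those higher included Srebf2, the transcription factor of sterol synthesis (0.58, adjusted p = 0.00315). Directly compared, 7 of the 26 were lower in Plcg2KO than in Trem2KO and none higher. In that comparison 16.5% of all tested genes were called, 8.82% lower and 7.63% higher. The other ABC lipid transporters gave 3 higher of 13 in Trem2KO, Abca3 (0.54) and Abcg4 (0.49) among them, and 4 higher of 13 in the libraries labelled Plcg2HET. None was called in Plcg2KO by edgeR, where 4 had an unadjusted p under 0.05 and DESeq2 called 0.

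Most of the tested genes of sterol handling were not called against WT in either knockout. The same held for all tested genes, of which 13.1% were called in Plcg2KO and 15.7% in Trem2KO. Npc2, the lysosomal cholesterol carrier, was lower by -0.48 ± 0.12 (SE, adjusted p = 0.00703) in Plcg2KO and -0.47 ± 0.12 (SE, adjusted p = 0.00620) in Trem2KO. Gramd1b, which returns plasma membrane cholesterol to the endoplasmic reticulum, was higher by 0.59 ± 0.11 (SE, adjusted p = 0.000697) and 0.48 ± 0.11 (SE, adjusted p = 0.00416). Of 17 storage and trafficking genes 1 was higher and 2 lower in Plcg2KO, and 3 higher and 2 lower in Trem2KO. Of 13 particle remodelling genes 1 was higher (Apod, 0.45) and 1 lower (Npc2) in Plcg2KO, and in Trem2KO only Npc2 was called. Of 10 oxysterol genes 3 were lower in Plcg2KO and 1 in Trem2KO. Gpr183, the receptor for oxysterols made downstream of CH25H, was lower by -1.33 ± 0.14 (SE, adjusted p = 2.96e-07) in Plcg2KO and -1.13 ± 0.14 (SE, adjusted p = 5.16e-06) in Trem2KO. Fdxr, the ferredoxin reductase that feeds electrons to mitochondrial P450 enzymes, was lower in Plcg2KO by -0.65 ± 0.12 (SE, adjusted p = 0.000437).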

How the data were processed

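RNA from the cortex of 24 mice, 1 library each, was extracted with the PureLink kit and made into libraries with the KAPA mRNA Hyperprep kit, per the labels' protocols. The authors deposited a gene-level count table of 24421 rows holding exon coordinates and exon length, per the file headers. According to the submitters' processing notes, STAR 2.7.10a, featureCounts 2.0.3 and mm10 were used. The strand setting, and the tool behind the expected counts and TPM that the authors deposited in a second table, are not given in these sources. The expected counts, rounded, entered an alternative fit, and TPM an alternative scaling of levels.

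The counts were analysed with R 4.3.3 and edgeR 4.0.16. Genes were kept by filterByExpr with a minimum count of 10, and 16316 passed. A robust quasi-likelihood model with TMM scaling, 1 mean per genotype and a sex term was fitted over all 24 libraries, so the genotypes shared 1 estimate of the spread. P-values were adjusted over all tested genes by the Benjamini-Hochberg method, and genes under 0.05 were called. Standard errors were derived from the fold change and its F statistic, and intervals are at 95%. The sex interaction used 1 mean per genotype and sex. The fit was tested on simulated data. GC content was available for 15693 tested genes. Promoter windows came from RefSeq (GRCm38.p6). By genotype, counted reads per library spanned 43.9 to 71.3 M (WT), 54.8 to 83.0 M (Trem2KO), 49.4 to 81.5 M (Plcg2KO) and 36.3 to 68.9 M (Plcg2HET). The replicates are separate mice by their labels.

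As alternatives, scaling by RLE, DESeq2 1.42.0, expected counts and offsets for GC and length were tried. Count filters were dropped or set to a mean CPM of 1, the sex term was dropped or replaced by a replicate block, and fits were repeated per sex and per pair of genotypes. Libraries were left out singly, and the 3 in which Rn45s exceeded 5% together. The members, gene lists and tests were chosen with earlier results of these data known. All 9 members are named, with Trem2, Plcg2 and, of each pathway list, up to 2 called genes with the smallest p per comparison. The 3 genes most correlated with each member over the 24 libraries are also named, from genes with a mean log2 CPM of at least 1 (prior count 2). A comparison of the proteins of these genes was not made here. FPKM values were not used here. Some genes that the naming rule takes are not reported here.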

Additional observations from a re-analysis of the deposited data

How the results depend on the processing

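Over 1620 recomputed fold changes (9 genes, 5 comparisons and each alternative), 56 changed direction, none of them of a called difference, 40 lost a call and 34 gained one. Lpl was called lower than WT in both knockouts under every alternative run, and in the libraries labelled Plcg2HET under all but males alone (adjusted p = 0.0954). The main counts of called genes were 3 in Plcg2KO, 3 in Trem2KO and 2 in the libraries labelled Plcg2HET against WT, 2 in Plcg2KO against Trem2KO and 5 in Plcg2KO against the libraries labelled Plcg2HET. In males alone they were 1, 1, 0, 0 and 0 in that order by edgeR, with 4, 2, 3, 2 and 5 at an unadjusted p under 0.05. In females alone the last pair were 0 and 2, with 3 and 4 at an unadjusted p under 0.05. These fits hold 2 to 4 mice per genotype. With only the 2 groups compared in the fit, the counts became 6 in Plcg2KO and 1 in the libraries labelled Plcg2HET against WT, and 3 between those groups. Without the libraries rich in Rn45s they were 1 in the libraries labelled Plcg2HET against WT and 2 between Plcg2KO and them. The causes were not tested.

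Leaving out each library in turn gave 3 to 5 calls in Plcg2KO and 2 to 3 in Trem2KO against WT, 2 to 4 in the libraries labelled Plcg2HET against WT, 1 to 3 in Plcg2KO against Trem2KO and 3 to 6 in Plcg2KO against the libraries labelled Plcg2HET. The count was 5 in Plcg2KO against WT without WT M2 or Plcg2HET M3, 4 in the libraries labelled Plcg2HET against WT without Plcg2HET M3, and 3 in Plcg2KO against them without Plcg2HET M2. It was 1 in Plcg2KO against Trem2KO without Plcg2KO F2, Trem2KO F3 or Trem2KO M1. No sex difference of a genotype effect was called for the 9 genes by edgeR with RLE scaling, with either other count filter, without the libraries rich in Rn45s or with any library left out.

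The replicate codes were not taken to pair the mice, because no label says that a code marks a shared litter or batch, and 20 of 33 same-code pairs, not all, had deviations correlated over 0.1 (range -0.190 to 0.376). With the replicate block, 1 gene was called in Plcg2KO against Trem2KO (Abca7), Clu having an adjusted p of 0.0532, and the other comparisons gave 3, 3, 2 and 5 calls.

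The changes of direction were of small differences. For Abca7 in the libraries labelled Plcg2HET against WT the log2 difference was 0.0051 with RLE scaling, 0.011 with only those groups, 0.12 in females, 0.042 with expected counts and 0.0057 with DESeq2, and -0.13 to 0.092 with a library left out. For Abcg1 in Plcg2KO against Trem2KO it was -0.0055 with no count filter, -0.0086 with a mean CPM of at least 1, -0.015 in males and -0.0051 with expected counts, and -0.043 to 0.026 with a library left out. For Soat1 in Plcg2KO against WT it was -0.045 in males and -0.065 with GC and length offsets, and -0.0014 to 0.11 with a library left out. For Cyp27a1 in Trem2KO against WT it was 0.18 in males, 0.0031 with only those groups and 0.065 with expected counts, and -0.080 to 0.084 with a library left out. For Abca1 in the libraries labelled Plcg2HET against WT it was 0.26 in females, 0.011 with only those groups and 0.020 without the libraries rich in Rn45s, and -0.11 to 0.094 with a library left out. For Lpl in Plcg2KO against the libraries labelled Plcg2HET it was -0.14 to 0.020 with a library left out. Apoe in Trem2KO against WT was 0.021 in males and 0.0014 without the libraries rich in Rn45s. Apoe with GC and length offsets was 0.025 in Plcg2KO against WT and 0.18 against Trem2KO. Abca7 in Trem2KO against WT was -0.11 with those offsets. Soat1 in Trem2KO against WT was 0.092 in females, and Cyp27a1 in the libraries labelled Plcg2HET against WT was -0.00069 in females.

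Depth limited Ch25h, with 10 reads in its lowest library. Calls over all genes, behind the percentages given, moved more. Plcg2HET against WT called 2936 genes, but 736 with only those groups, 807 without the libraries rich in Rn45s, 419 in females and 5 in males. Plcg2KO against Trem2KO called 2684, but 1073 with the block, 1330 with GC and length offsets, 6712 with only those groups, 11 in males, 6 in females, and 769 without Trem2KO M1. Trem2KO against WT called 2565, but 4780 with only those groups, 72 in males and 963 in females. Plcg2KO against WT called 2133, but 3557, 369 and 1011 under the same settings, and Plcg2KO against the libraries labelled Plcg2HET called 5746, but 3512, 1581 and 1664, and 3113 without the libraries rich in Rn45s.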

Other observations

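For each of the 9 genes, the genes whose levels followed it most closely over the 24 libraries were named. Among 12902 tested genes with a mean log2 CPM of at least 1, the highest Pearson r with Apoe was that of Hspb6 (0.93), then Gps2 (0.92) and Bak1 (0.92). Clu was followed by Itpkb (0.93), Slc44a2 (0.93) and Man2b2 (0.92), and Lpl by Srek1ip1 (0.89), Angel2 (0.87) and Pabpn1 (0.85). Abca1 was followed by Tgfbr3 (0.87) and Lmln (0.87), among others. Abcg1 was followed by Kdm5b (0.91), Stk35 (0.87) and Dapk1 (0.87), and Abca7 by Pcbp4 (0.94), Ppp1r16a (0.94) and Plxnb3 (0.93). Soat1 was followed by Hsf2 (0.90), Myo6 (0.88) and Ubxn7 (0.87), and Cyp27a1 by Ddx41 (0.92), Ankrd13d (0.91) and Colgalt1 (0.91). Ch25h was followed by Cmtm3 (0.87), Lrmp (0.87) and D17H6S56E-5 (0.86). These r also hold the differences between genotypes and sexes. With genotype and sex means removed, r was 0.72, 0.47 and 0.84 for the genes named beside Lpl, in that order. It was 0.64, 0.69 and 0.76 for those beside Ch25h, and 0.78 to 0.93 for those beside the other members. The points share libraries, depth and base composition.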
